A study of Homo sapiens with 12 samples.

Results

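The nuclear genes that encode subunits of the mitochondrial respiratory chain and of ATP synthase were followed in A172, an established human glioblastoma cell line, after siRNAs against uc.110. They were chosen by name: protein-coding rows of the deposited count table, on autosomes or chromosome X, whose symbol marks a subunit of complex I (NDUFA, NDUFB, NDUFC, NDUFS, NDUFV), complex II (SDHA to SDHD), complex III (UQCR), complex IV (COX4 to COX8) or ATP synthase (ATP5). The names matched 108 rows of 89 genes among all 49731 rows of the table. Of the 49731 rows, 44991 could be used. No symbol had several rows, and 19 of the 108 rows stood under an older name. 2 of the 89 genes are readthrough genes and were kept out of the counts. The other 87 are 36 genes of complex I, 4 of complex II, 9 of complex III, 19 of complex IV and 19 of ATP synthase. Rows of 7 of them (NDUFA3, NDUFA6, NDUFA10, NDUFS1, NDUFS3, COX8C and ATP5IF1) reach over 100 kb beyond the gene and were not used, which left 80 genes. 78 of these had enough reads to be tested; COX4I2 and COX7A1 did not. NDUFA4 and NDUFA4L2 are counted with complex IV, as their current symbols COXFA4 and COXFA4L2 have it.

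The cells were wild type in genotype by their label and received siRNA-1 against uc.110, siRNA-2 against uc.110 or a scrambled control siRNA, with 4 libraries in each group. All were seeded on day 0, transfected with a Lipofectamine reagent for 6 h on day 1, and collected on day 2. uc.110 is an ultraconserved element, a stretch of genome identical between human, mouse and rat, and the study asked which genes change when its transcript is targeted. All libraries come from 1 cell line, and nothing in the labels says that the 4 libraries of a group were separate cultures, so p-values measure the spread between these libraries, which may be technical.

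The respiratory chain sits in the inner mitochondrial membrane. Complexes I and II pass electrons from NADH and succinate to ubiquinone, complex III passes them to cytochrome c, and complex IV to oxygen; complexes I, III and IV pump protons, and ATP synthase lets the protons back to make ATP. Most subunits are encoded in the nucleus and imported, while a small core is encoded in mitochondrial DNA, so each complex needs products of both genomes in step. Glioblastoma cells are known for strong glycolysis, and many of them still respire.

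The used rows held 42765562 to 52930684 counts per library. The uc.110 interval, chr2:236162738-236162980 on hg38, held 2, 0, 1 and 2 reads in the siRNA-1 libraries, 3, 0, 4 and 0 in the siRNA-2 libraries and 4, 0, 1 and 6 in the scrambled libraries, so its knockdown was not detectable at this depth. A row of 45S ribosomal RNA (RNA45SN1) took 0.592% to 1.79% of the counts in 10 libraries, 5.66% in the third siRNA-1 library and 3.09% in the second siRNA-2 library. Of 10 glial and glioma markers only S100B was under 1 CPM on average (counts scaled by library total and trimmed mean of M values), and their summed level was 2920 to 3230 CPM in siRNA-1, 3280 to 3510 CPM in siRNA-2 and 3790 to 4140 CPM in scrambled libraries. The single markers went both ways. Of 9 tested, 4 were higher (44.4%) and 3 lower (33.3%) with each siRNA at an edgeR adjusted p of 0.05. Over all rows tested, 28.6% were higher and 24.8% lower after siRNA-1, and 29.9% and 26.1% after siRNA-2. The log2 fold changes of the markers ran from -1.92 to 1.26 after siRNA-1 and from -0.58 to 1.07 after siRNA-2. Markers of other cell types summed to 32.2 to 34.5 CPM in siRNA-1, 30.5 to 34.5 CPM in siRNA-2 and 35.5 to 38.7 CPM in scrambled libraries, with CD3E, CDH1, RBFOX3 and MBP under 1 CPM on average among the 8 with a row. Muscle markers summed to at most 0.379 CPM in siRNA-1, 0.39 CPM in siRNA-2 and 0.312 CPM in scrambled libraries. Whether these levels play a part in the results below was not tested. In bulk RNA, fewer expressing cells and less RNA per cell cannot be told apart. Each row counts every read over the whole span of a gene, introns and overlapping genes included: 43 of the 80 rows overlap another tested row, and 16 hold at least 100 bases of exon of another protein-coding gene.

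Respiratory chain genes were lower after siRNA-2 and mixed after siRNA-1. In siRNA-2 against scrambled libraries, 51 of the 78 genes fell and 4 rose (edgeR quasi-likelihood test, two-sided, Benjamini-Hochberg adjusted p at most 0.05), where 26.1% of all 24917 rows tested fell and 29.9% rose, 56.1% in all. The 4 that rose were NDUFA5, NDUFV3, SDHA and COX6B1. In siRNA-1 against scrambled libraries, 25 genes fell and 17 rose, against 24.8% lower and 28.6% higher over all rows, 53.4% in all, so the shares of 32.1% lower and 21.8% higher lay near the background of this fit. The changes were small. The median log2 fold change of the 78 genes was -0.17 after siRNA-2 and -0.05 after siRNA-1, beside 0.014 and 0.006 over all rows tested. Among rows past the threshold, the median size was 0.25 for these genes after siRNA-2, against 0.45 for all rows, and 0.18 after siRNA-1, against 0.42 for all rows. Among protein-coding rows alone the background was 28.0% lower and 35.0% higher after siRNA-1, and 30.5% lower and 35.1% higher after siRNA-2. In 47 genes every siRNA-2 library lay below every scrambled library, against 24.0% of all rows, and in 3 above, against 27.8%. After siRNA-1, 20 genes lay below, against 22.2% of all rows, and 10 above, against 25.2%. Both comparisons use the same 4 scrambled libraries, so they are not independent of each other.

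The count of 17 genes higher after siRNA-1 depended on single libraries and on the rows used. It was 8 without scrambled replicate 1, 11 without scrambled replicate 4, 9 without siRNA-1 replicate 1 or 4, 10 without siRNA-1 replicate 3, 10 without both libraries of high ribosomal RNA, and 11 with 35 lower when only protein-coding rows were used for scaling and testing. With protein-coding rows only, 4768 of all 14989 rows rose after siRNA-1 and 4858 fell. The lower share of the respiratory chain genes then lay above that of all such rows, and the higher share below. The 35 tested genes whose rows overlap no other tested row held 9 higher (25.7%) and 8 lower (22.9%) after siRNA-1. After siRNA-2 they held 3 higher (8.57%) and 19 lower (54.3%). Another set, formed after the data were seen, was the 62 tested genes whose rows hold under 100 bases of exon of another protein-coding gene. It had 17 higher (27.4%) and 16 lower (25.8%) after siRNA-1, and 4 higher (6.45%) and 38 lower (61.3%) after siRNA-2. After siRNA-1 the shares of both sets lay near the 28.6% higher and 24.8% lower of all rows. After siRNA-2, all rows had 29.9% higher and 26.1% lower.

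**Figure D1:**
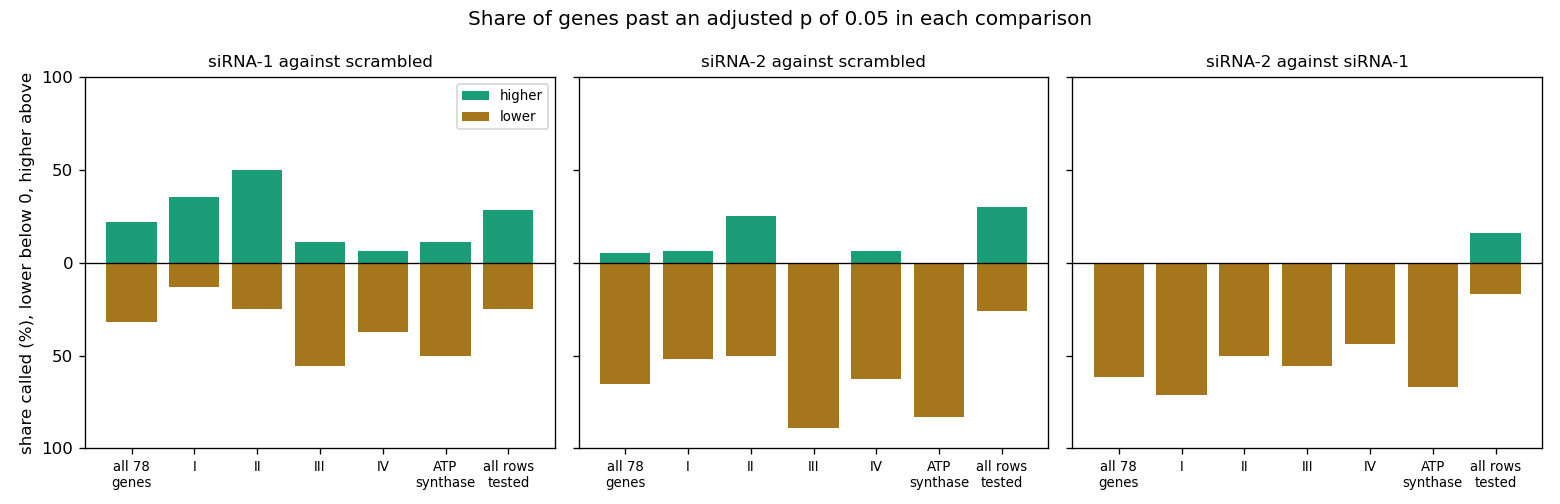
Share of genes past an adjusted p of 0.05, as percent, higher above the zero line and lower below it, for the 78 genes, for each complex and for all rows tested, in the 3 comparisons. In siRNA-2 against scrambled, 65.4% of the 78 genes were lower and 5.13% higher; in siRNA-2 against siRNA-1, 61.5% were lower and 0 higher.

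The shares by complex stand beside 28.6% higher and 24.8% lower over all rows tested after siRNA-1, and 29.9% and 26.1% after siRNA-2. In complex I, 11 of 31 genes rose (35.5%) and 4 fell (12.9%) after siRNA-1, while 2 rose (6.45%) and 16 fell (51.6%) after siRNA-2. The 35.5% higher after siRNA-1 lay at the 35.0% of protein-coding rows. In complex III, 1 of 9 genes rose (11.1%) and 5 fell (55.6%) after siRNA-1, and 8 fell (88.9%) and 0 rose after siRNA-2. No complex III gene was higher after siRNA-2 at an unadjusted p under 0.05 by edgeR either, or by DESeq2. Complex IV had 1 of 16 genes higher (6.25%) and 6 lower (37.5%) after siRNA-1, and 1 higher (6.25%) and 10 lower (62.5%) after siRNA-2. ATP synthase had 2 of 18 genes higher and 9 lower after siRNA-1. After siRNA-2 it had 15 lower (83.3%) and 0 higher by edgeR, and also 0 higher by DESeq2. At an unadjusted p under 0.05 by edgeR, 1 was higher, ATP5MGL. Complex II, with 4 genes, had 2 higher and 1 lower after siRNA-1 and 1 higher and 2 lower after siRNA-2.

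The summed level shows the same order in CPM. Over all 80 genes it was 6227, 6072, 6056 and 6354 CPM in the siRNA-1 libraries, 5565, 5447, 5758 and 5663 CPM in the siRNA-2 libraries, and 6102, 6164, 6568 and 6501 CPM in the scrambled libraries. The siRNA-2 libraries all lay below the scrambled ones, the siRNA-1 libraries overlapped them, and scrambled replicates 3 and 4 lay above replicates 1 and 2. The ratio of means was 0.885 for siRNA-2 over scrambled and 0.975 for siRNA-1 over scrambled. By complex, siRNA-2 over scrambled was 0.945 for complex I, 0.937 for complex II, 0.843 for complex III, 0.872 for complex IV and 0.838 for ATP synthase, and in each of these 5 the libraries of the 2 groups did not overlap, though in complex II the highest siRNA-2 library had 339.5 CPM and the lowest scrambled library 339.6 CPM. The value of complex II rests on the SDHC row, which holds the exons of CFAP126: over the other 3 genes the siRNA-2 libraries had 237.9 to 261.7 CPM and the scrambled libraries 219.1 to 232.6 CPM, a ratio of 1.1. For siRNA-1 over scrambled, the ratios were 1.05, 0.979, 0.936, 0.948 and 0.928 in the same order. Among all rows the groups did not overlap for ATP synthase alone, and there they nearly touched. The highest siRNA-1 library had 1851.6 CPM and the lowest scrambled library 1853.4 CPM. With scaling on protein-coding rows only, complexes II (0.954), III (0.911) and IV (0.923) did not overlap either. Over rows with under 100 bases of exon of another protein-coding gene, ATP synthase overlapped (0.931), while the siRNA-1 libraries lay above the scrambled ones in complex I (1.07) and complex II (1.13). Over the same rows, complex I overlapped with DESeq2 size factors (1.05) and with scaling on protein-coding rows only (1.04). With that last scaling, complex IV (0.911) and ATP synthase (0.906) did not overlap. These sums are descriptions and carry no test.

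**Figure D2:**
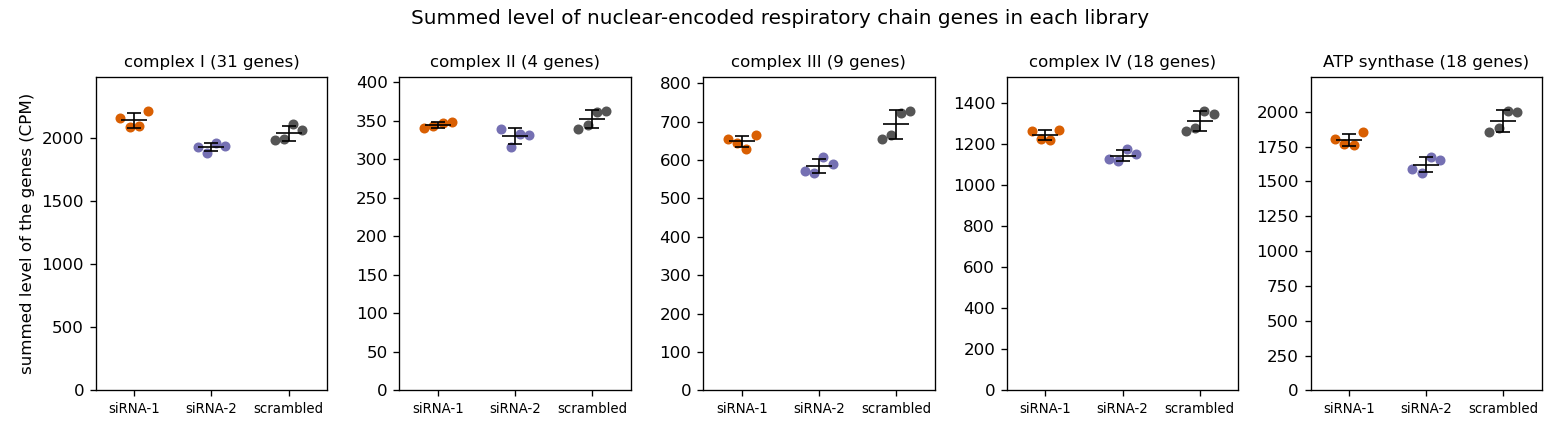
Summed level in CPM of the genes of each complex in the 4 libraries of siRNA-1, siRNA-2 and scrambled, with the mean and SD (n = 4) as a bar. In all 5 panels the siRNA-2 libraries lie below the scrambled libraries, for complex II only with the SDHC row included (ratio 0.937, against 1.1 without it), and for complex I the siRNA-1 libraries (2093 to 2219 CPM) reach above the scrambled ones (1988 to 2113 CPM).

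Promoters are given for 4 genes. ATP5PB and NDUFA5 have the lowest and the highest mean log2 fold change over both siRNAs among genes called in the same direction by both. SDHD and SDHB hold the most of 3 words searched among genes lower in siRNA-2 against siRNA-1. They were picked for these words, so they do not stand for the other genes. The sequences are from RefSeq on GRCh38.p14, 250 bases before to 50 after the annotated start, written 5′ to 3′ along the gene. Capitals mark the words CATGCGC (part of the site of NRF1, a regulator of respiratory chain genes), CCGGAAG (bound by ETS factors such as GABPA) and AAGGTCA (bound by estrogen-related receptors), on either strand.
ATP5PB, chr1:111449214-111449513, plus strand: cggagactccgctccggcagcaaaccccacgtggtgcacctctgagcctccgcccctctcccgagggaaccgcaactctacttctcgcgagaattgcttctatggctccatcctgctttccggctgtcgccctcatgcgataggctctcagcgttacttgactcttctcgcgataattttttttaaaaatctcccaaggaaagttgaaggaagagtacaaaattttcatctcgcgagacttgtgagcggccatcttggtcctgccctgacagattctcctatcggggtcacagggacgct
NDUFA5, chr7:123601602-123601901, minus strand: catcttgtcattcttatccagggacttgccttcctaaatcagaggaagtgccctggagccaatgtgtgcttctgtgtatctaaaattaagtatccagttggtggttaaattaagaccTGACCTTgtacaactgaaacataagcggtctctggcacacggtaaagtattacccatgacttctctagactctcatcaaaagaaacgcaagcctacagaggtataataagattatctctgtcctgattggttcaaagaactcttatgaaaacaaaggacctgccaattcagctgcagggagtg
SDHD, chr11:112086623-112086922, plus strand: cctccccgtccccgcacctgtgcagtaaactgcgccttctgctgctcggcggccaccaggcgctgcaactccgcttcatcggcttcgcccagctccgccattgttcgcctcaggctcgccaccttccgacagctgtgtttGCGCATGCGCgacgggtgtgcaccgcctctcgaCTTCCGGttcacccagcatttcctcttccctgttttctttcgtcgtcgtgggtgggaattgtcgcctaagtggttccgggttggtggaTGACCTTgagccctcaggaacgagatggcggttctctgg
SDHB, chr1:17053983-17054282, minus strand: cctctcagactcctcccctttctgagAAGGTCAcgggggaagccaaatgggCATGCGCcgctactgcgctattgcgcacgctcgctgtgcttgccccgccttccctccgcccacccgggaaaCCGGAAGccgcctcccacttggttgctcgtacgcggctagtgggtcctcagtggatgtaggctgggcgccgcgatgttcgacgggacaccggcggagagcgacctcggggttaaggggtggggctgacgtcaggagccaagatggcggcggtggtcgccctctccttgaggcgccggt
Each window is placed at an annotated start, and which start these cells use was not examined. For NDUFA5 the window lies at the outer end of a row of 64.7 kb, so it may not be the promoter in use. The ATP5PB window holds none of the 3 words, and the NDUFA5 window holds AAGGTCA on the opposite strand. SDHD holds CATGCGC on both strands in an overlapping run, CCGGAAG and AAGGTCA on the opposite strand, and SDHB holds all 3 words on its own strand. Among the 64 of 80 genes with an entry in the table, 20.3% held CATGCGC, 28.1% CCGGAAG and 14.1% AAGGTCA, against 5.87%, 14.2% and 3.13% of 15843 promoters of protein-coding genes. Of the 37 with an entry that were lower in siRNA-2 against siRNA-1, 21.6% held CATGCGC, 27.0% CCGGAAG and 18.9% AAGGTCA, beside 18.5%, 29.6% and 7.41% of the other 27. A match is a description of the letters and not a measured binding site.

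ATP synthase was lower after siRNA-2 in its stalk, its head and its membrane ring. The gene with the largest change was ATP5PB, the b subunit of the peripheral stalk that holds the head still against the turning ring (chr1:111449464-111462773, plus strand, hg38). It was at 61.4, 57.7, 55.3 and 58.5 CPM in the siRNA-1 libraries, 45.7, 48.0, 50.9 and 50.8 CPM in the siRNA-2 libraries, and 80.6, 89.2, 93.0 and 97.0 CPM in the scrambled libraries. All 8 siRNA libraries lay below all 4 scrambled ones, and the siRNA-2 libraries lay below the siRNA-1 ones. The log2 fold change was -0.63 ± 0.05 (SE) after siRNA-1, with an edgeR adjusted p of 1.48e-10, and -0.88 ± 0.05 after siRNA-2, with an edgeR adjusted p of 2.88e-13. The other 3 stalk genes fell with both siRNAs. ATP5PO, which joins the stalk to the head, averaged 89.9 ± 4.82 CPM after siRNA-2 and 117 ± 7.63 CPM in scrambled libraries (SD, n = 4 each), and fell by 0.22 after siRNA-1 and 0.38 after siRNA-2 on the log2 scale. ATP5PD had a log2 fold change of -0.13 with each siRNA, and ATP5PF had -0.09 and -0.17; the ATP5PF row also holds exons of GABPA.

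Among the 5 genes of the catalytic head, ATP5F1C, the turning gamma shaft, averaged 130.0 ± 5.56 CPM after siRNA-1, 116 ± 4.29 CPM after siRNA-2 and 151 ± 4.84 CPM in scrambled libraries, a log2 fold change of -0.21 and -0.38 (edgeR adjusted p 4.45e-05 and 4.38e-09). ATP5F1A, the alpha subunit, fell by 0.16 and 0.24 on the log2 scale. ATP5F1B, the catalytic beta subunit, fell after siRNA-2 (-0.22, edgeR adjusted p 5.58e-05), and had -0.02 after siRNA-1, with an edgeR adjusted p of 0.687. ATP5F1E, the epsilon subunit, varied among the scrambled libraries, at 66.3, 63.9, 90.4 and 84.4 CPM; its log2 fold change after siRNA-2 was -0.48 ± 0.11 (edgeR adjusted p 0.00303), and its row also holds an exon of TUBB1. ATP5F1D, the delta subunit, rose after siRNA-1 by 0.18, with overlapping libraries, a call lost in 12 of 22 other settings. Its log2 fold change after siRNA-2 was -0.04 (edgeR adjusted p 0.603).

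ATP5MC1, ATP5MC2 and ATP5MC3 encode the same ring subunit c with different import signals, and all 3 fell after siRNA-2, by 0.14, 0.27 and 0.24 on the log2 scale. After siRNA-1, ATP5MC2 fell by 0.15, and the values of ATP5MC1 and ATP5MC3 were 0.05 and -0.07 without passing the threshold. Among small membrane subunits, ATP5MJ was at 19.6, 19.1, 16.8 and 17.6 CPM in the siRNA-1 libraries, 14.1, 13.7, 17.7 and 14.9 CPM in the siRNA-2 libraries, and 19.6, 20.8, 24.5 and 22.1 CPM in the scrambled libraries. Its log2 fold change was -0.25 ± 0.08 after siRNA-1 (edgeR adjusted p 0.012) and -0.52 ± 0.08 after siRNA-2 (edgeR adjusted p 1.24e-05), and without scrambled replicate 3 the siRNA-1 value was -0.19 and missed the threshold. ATP5MG, ATP5MK and ATP5MF fell after siRNA-2 by 0.21, 0.20 and 0.13. ATP5MGL, an intronless copy of ATP5MG that overlaps the CYB5R3 row, rose after siRNA-1 by 0.20; whose reads these are cannot be told apart. ATP5IF1, the inhibitor of ATP synthase, has no usable row under that name. Its row under the older name ATPIF1, looked up after the other values were seen, was at 57.1 ± 1.78 CPM after siRNA-1, 56.1 ± 1.08 CPM after siRNA-2 and 62.7 ± 1.05 CPM in scrambled libraries, a fall of 0.14 and 0.16 on the log2 scale.

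**Figure D3:**
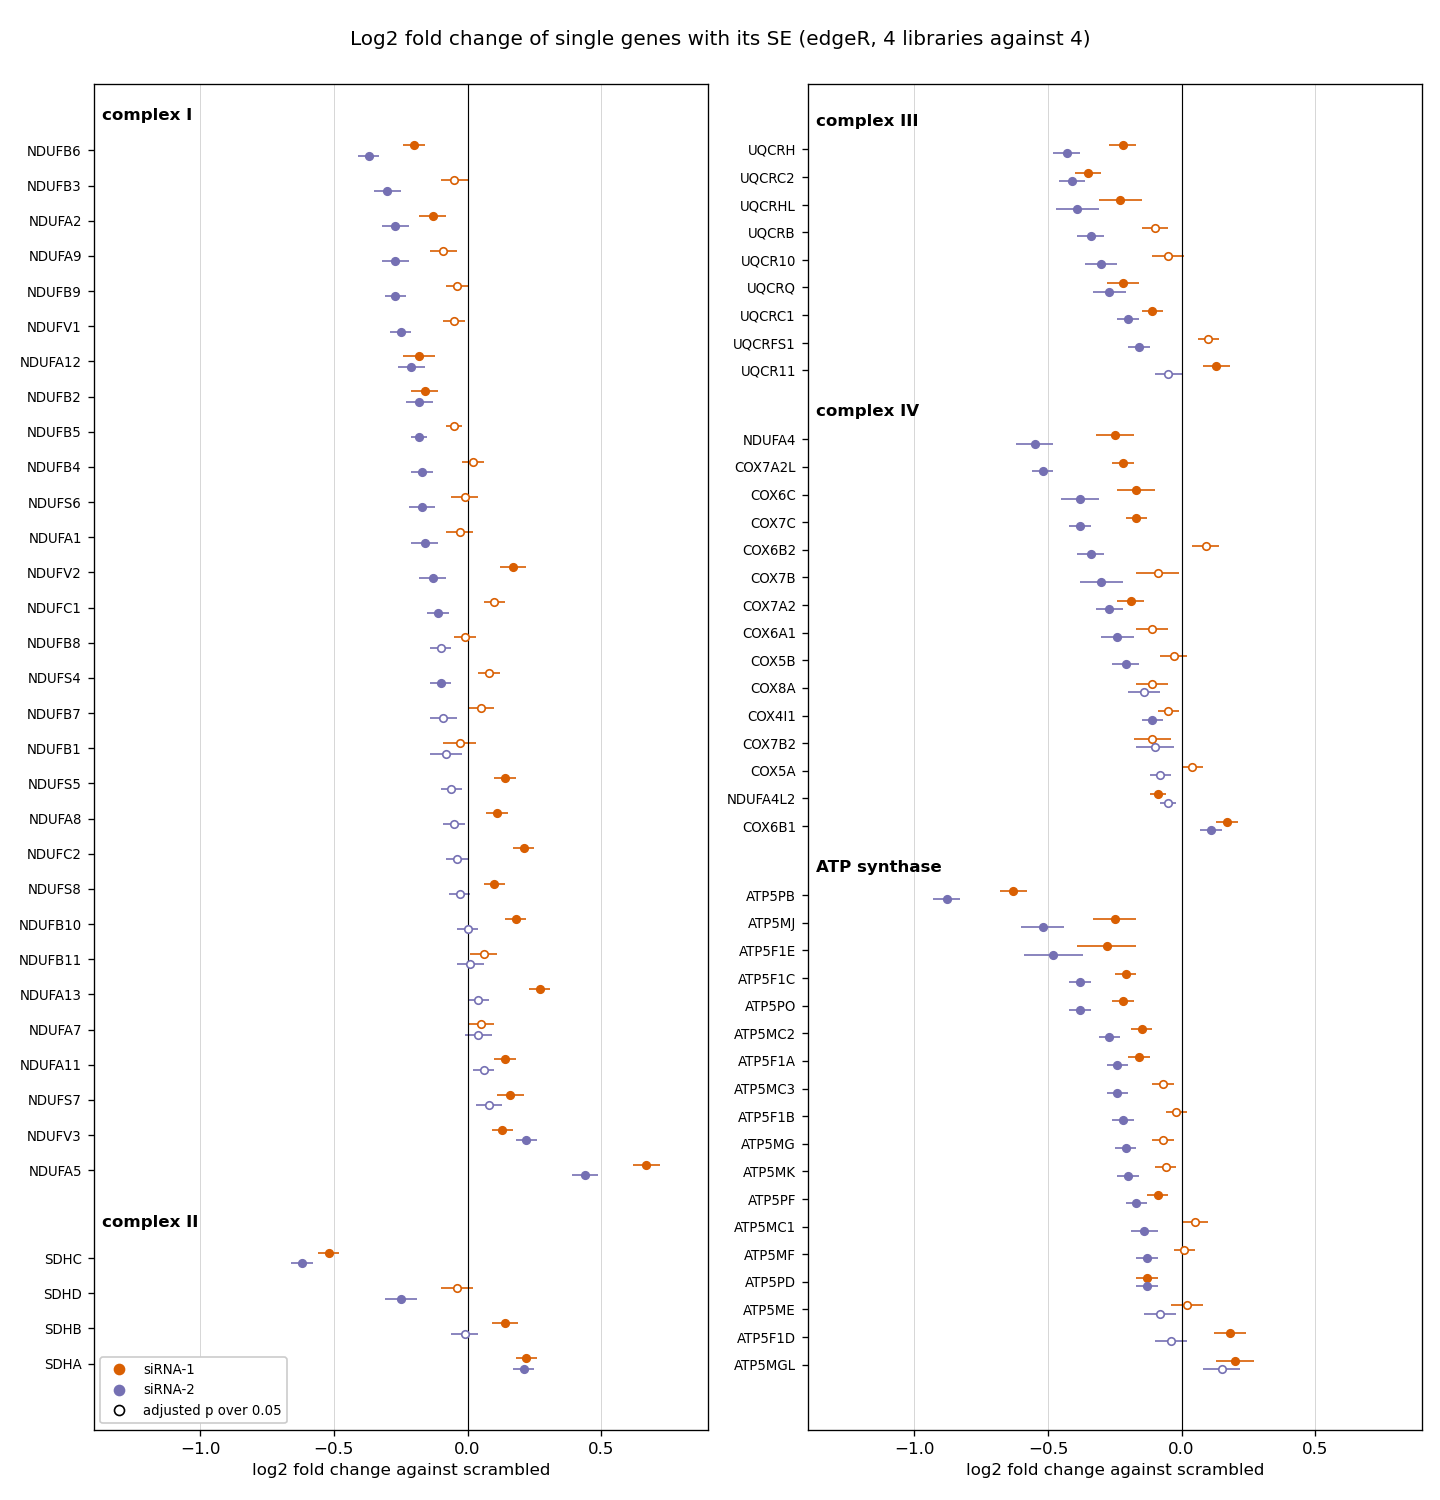
Log2 fold change against scrambled, with its SE, of tested genes after siRNA-1 and siRNA-2, sorted within each complex; filled points passed an adjusted p of 0.05. COX6A2, whose SE is over 1.3, is not drawn. Most siRNA-2 points lie left of the siRNA-1 point of the same gene. ATP5PB (-0.63 and -0.88) has the lowest values and NDUFA5 (0.67 and 0.44) the highest.

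In complex III, 8 of 9 genes fell after siRNA-2. UQCRC2, a core protein of the complex that faces the matrix (chr16:21953065-21992060, plus strand), was at 51.9, 51.1, 49.5 and 50.5 CPM in siRNA-1 libraries, 45.8, 46.2, 52.6 and 50.1 CPM in siRNA-2 libraries, and 60.8, 61.4, 67.1 and 68.6 CPM in scrambled libraries. All siRNA libraries lay below all scrambled ones, and the log2 fold changes were -0.35 ± 0.05 and -0.41 ± 0.05 (edgeR adjusted p 1.16e-06 and 7.56e-08). The row also holds 78.3% of the exon length of PDZD9, so its reads are not all certain to be of UQCRC2. UQCRC1, the other core protein, fell by 0.11 after siRNA-1 and 0.20 after siRNA-2. UQCRH, the hinge protein, fell by 0.22 and 0.43, and UQCRHL, an intronless copy of it, by 0.23 and 0.39; reads of such copies can be exchanged between them, and the UQCRHL row also overlaps FLJ37453. UQCRB, next to the quinone site, averaged 62.9 ± 1.24 CPM after siRNA-2 and 79.7 ± 7.41 CPM in scrambled libraries (SD, n = 4 each), a log2 fold change of -0.34 ± 0.05 (edgeR adjusted p 7.29e-06). After siRNA-1 it had -0.10 (edgeR adjusted p 0.121). UQCRFS1, the Rieske iron-sulfur protein, fell after siRNA-2 by 0.16 and had 0.10 after siRNA-1 (edgeR adjusted p 0.0606). UQCR11, a small subunit, was higher after siRNA-1 by 0.13, with libraries that overlap the scrambled ones, a call lost in 14 of 22 other settings.

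In complex IV, the clearest changes were in NDUFA4 and in subunits of the COX7 families. NDUFA4 (chr7:10928840-10940599, minus strand) was first counted with complex I and later assigned to complex IV. It was at 89.0, 82.9, 77.1 and 83.2 CPM in siRNA-1 libraries, 62.8, 63.9, 74.2 and 69.6 CPM in siRNA-2 libraries, and 88.6, 94.0, 105 and 108 CPM in scrambled libraries. The siRNA-2 libraries lay below both other groups, while siRNA-1 replicate 1 lay within the scrambled range. The log2 fold change was -0.25 ± 0.07 after siRNA-1 (edgeR adjusted p 0.00662) and -0.55 ± 0.07 after siRNA-2 (edgeR adjusted p 9.12e-06). COX7A2L, which helps to join complex III and complex IV into a supercomplex, was at 95.7, 88.9, 88.1 and 92.8 CPM in siRNA-1 libraries, 76.1, 70.4, 77.2 and 73.0 CPM in siRNA-2 libraries, and 104, 102, 110.0 and 110.0 CPM in scrambled libraries. The 3 groups did not overlap, and the log2 fold changes were -0.22 ± 0.04 and -0.52 ± 0.04 (edgeR adjusted p 4.3e-05 and 3.15e-11). COX7C and COX7A2 fell with both siRNAs, by 0.17 and 0.38 for COX7C and by 0.19 and 0.27 for COX7A2. COX6C, COX7B, COX6A1 and COX5B fell after siRNA-2, by 0.38, 0.30, 0.24 and 0.21. COX5A, which with COX5B flanks the catalytic core, had 0.04 and -0.08 with neither past the threshold. COX6B1 was the complex IV gene that was higher with both siRNAs, by 0.17 and 0.11, with overlapping libraries; its call after siRNA-2 was lost in 15 of 22 other settings.

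**Figure D4:**
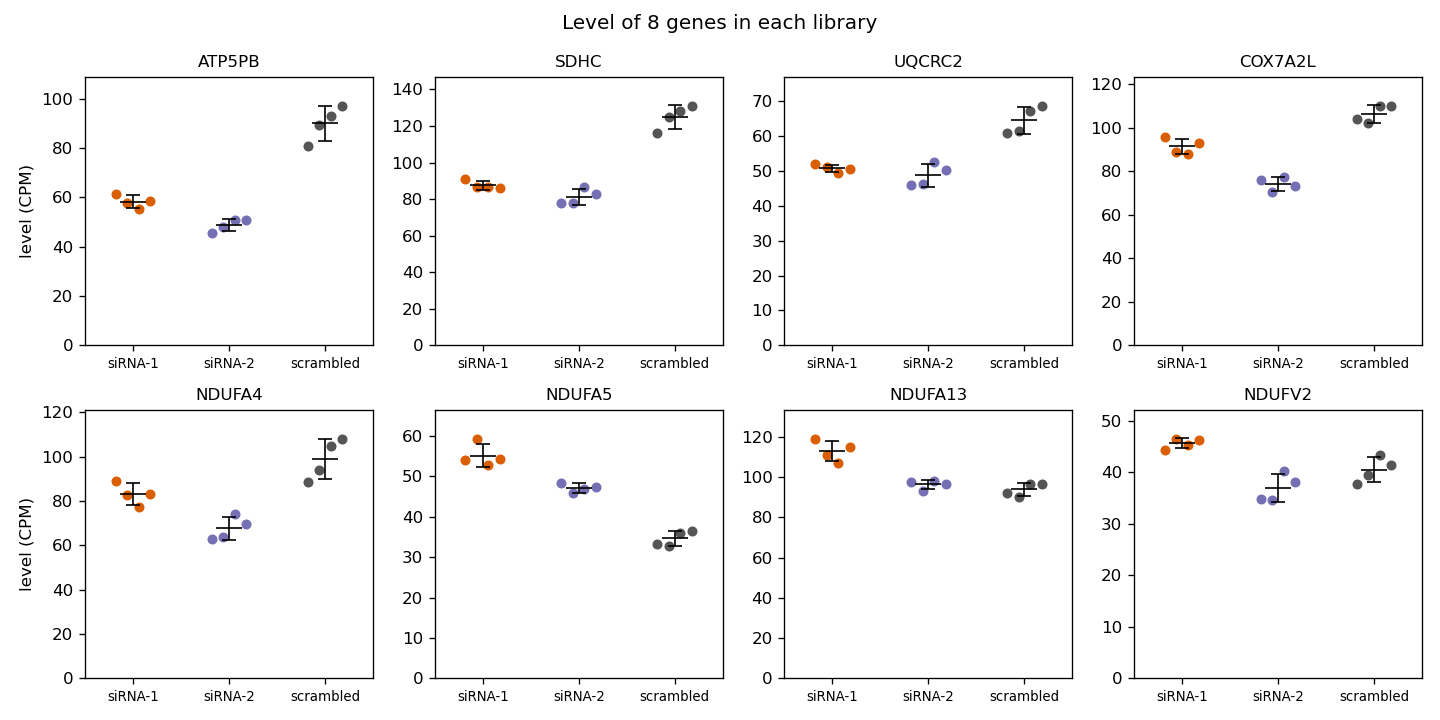
Level in CPM of 8 genes in each library of siRNA-1, siRNA-2 and scrambled, with the mean and SD (n = 4) as a bar and the axis from 0. ATP5PB, SDHC, UQCRC2 and COX7A2L are lower in all siRNA libraries than in all scrambled ones, NDUFA5 is higher in all, NDUFA13 is higher in siRNA-1 than in both other groups, and NDUFV2 is higher in siRNA-1 and lower on average in siRNA-2.

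Isoforms are given in CPM per kilobase of exon. The counts behind them include reads in introns and overlapping genes, so the values rank no genes against each other and bear only on large gaps. COX4I1, the common form of the regulatory subunit 4, was at 147, 141 and 152 CPM per kb in siRNA-1, siRNA-2 and scrambled libraries, while COX4I2, its lung and hypoxia form, had no library above 0.111 CPM. COX7A2 was at 55.7, 53.0 and 63.7 CPM per kb, while COX7A1, the heart and muscle form, had no library above 0.178 CPM. COX6A1 was at 73.7, 67.1 and 79.5 CPM per kb, and COX6A2, the muscle form, at 3.73, 4.24 and 3.94 CPM per kb. COX6A2 varied widely within each group, at 0.889, 2.88, 2.79 and 0 CPM after siRNA-1, 0, 4.17, 0 and 3.3 CPM after siRNA-2 and 0.846, 0.645, 0.697 and 4.74 CPM in scrambled libraries. Muscle marker genes were under 1 CPM in all 3 groups. The rows of COX6B2 (with KMT5C) and NDUFA4L2 (with SHMT2) hold most of another gene's exons, and their levels are not those of the gene alone. COX7B2, with a row of 174 kb that is nearly all intron, was at 19.4, 19.6 and 21.0 CPM per kb in siRNA-1, siRNA-2 and scrambled libraries, with log2 fold changes of -0.11 and -0.10 that did not pass the threshold.

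Complex I held the gene with the largest rise, NDUFA5, an accessory subunit of the arm that faces the matrix (chr7:123536997-123601733, minus strand). It was at 54.1, 59.3, 52.8 and 54.3 CPM in siRNA-1 libraries, 48.5, 45.8, 46.9 and 47.4 CPM in siRNA-2 libraries, and 33.3, 32.8, 36.1 and 36.4 CPM in scrambled libraries. The 3 groups did not overlap. The log2 fold change was 0.67 ± 0.05 after siRNA-1 and 0.44 ± 0.05 after siRNA-2 (edgeR adjusted p 5.97e-12 and 9.23e-09). NDUFV3, an accessory subunit at the NADH site, also rose with both, by 0.13 and 0.22; the rise after siRNA-1 was lost in 9 of 22 other settings.

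Other complex I genes rose after siRNA-1 without passing the threshold after siRNA-2. NDUFA13, also known as GRIM-19, was at 119, 111, 107 and 115 CPM in siRNA-1 libraries, 97.8, 93.1, 98 and 96.8 CPM in siRNA-2 libraries, and 91.9, 90.3, 96.7 and 96.7 CPM in scrambled libraries. The siRNA-1 libraries stood above both other groups, which overlapped, with log2 fold changes of 0.27 ± 0.04 and 0.04 ± 0.04 (edgeR adjusted p 2.18e-06 and 0.422). NDUFC2, in the membrane arm, averaged 147 ± 6.63 CPM after siRNA-1, 124 ± 2.03 CPM after siRNA-2 and 127 ± 1.99 CPM in scrambled libraries, and rose by 0.21 after siRNA-1; its reads are shared with the readthrough NDUFC2-KCTD14. NDUFB10, NDUFS5 and NDUFS7 were higher after siRNA-1 by 0.18, 0.14 and 0.16. Among core subunits, which carry the redox centres or line the quinone site, NDUFV2, NDUFS7 and NDUFS8 were higher after siRNA-1. The libraries of NDUFS7 and NDUFS8 overlapped the scrambled ones, and their calls were lost in 3 and 16 of 22 other settings.

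NDUFV2, a core iron-sulfur subunit, was the 1 gene called in opposite directions. It was at 44.4, 46.5, 45.3 and 46.3 CPM in siRNA-1 libraries, 34.9, 34.6, 40.3 and 38.2 CPM in siRNA-2 libraries, and 37.8, 39.4, 43.4 and 41.4 CPM in scrambled libraries. The siRNA-1 libraries lay above the scrambled ones, and the siRNA-2 libraries overlapped them. Its log2 fold change was 0.17 ± 0.05 after siRNA-1 (edgeR adjusted p 0.00641) and -0.13 ± 0.05 after siRNA-2 (edgeR adjusted p 0.0358). Without scrambled replicate 1 the siRNA-1 value was 0.11 and missed the threshold, as did the siRNA-2 value without scrambled replicate 3 (-0.09) or 4 (-0.13) or siRNA-2 replicate 1 (-0.12) or 2 (-0.10). The row shares reads with NDUFV2-AS1.

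The complex I genes that fell with both siRNAs were NDUFB6, NDUFA12, NDUFB2 and NDUFA2. The NDUFA2 row also holds 100% of the exon length of TMCO6, so its reads are not all certain to be of NDUFA2. Its call after siRNA-1 was lost in 3 of 22 other settings. NDUFB6, in the membrane arm, averaged 33.6 ± 1.15 CPM after siRNA-1, 30.0 ± 0.582 CPM after siRNA-2 and 38.7 ± 0.845 CPM in scrambled libraries, with log2 fold changes of -0.20 and -0.37 (edgeR adjusted p 0.000294 and 5.63e-08); its row also holds exons of SMIM27. NDUFV1, the core subunit that binds NADH, averaged 72.9 ± 1.44 CPM after siRNA-2 and 86.4 ± 2.25 CPM in scrambled libraries, a log2 fold change of -0.25 ± 0.04 (edgeR adjusted p 1.62e-06). After siRNA-1 it had -0.05 (edgeR adjusted p 0.256). NDUFB3, a membrane arm subunit, fell by 0.30 after siRNA-2 and had -0.05 after siRNA-1 (edgeR adjusted p 0.389).

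In complex II, also an enzyme of the citric acid cycle, the 4 genes did not move together. SDHC, a membrane anchor (chr1:161314377-161375340, plus strand), was at 91.1, 86.4, 86.5 and 86.0 CPM in siRNA-1 libraries, 77.8, 77.8, 86.6 and 82.6 CPM in siRNA-2 libraries, and 116, 125, 128 and 131 CPM in scrambled libraries. All siRNA libraries lay below all scrambled ones, with log2 fold changes of -0.52 ± 0.04 and -0.62 ± 0.04 (edgeR adjusted p 1.43e-10 and 3.46e-12). The row of CFAP126, a gene of cilia, lies whole inside it, holds 16.2% of its reads and fell by 1.19 and 1.29. With those reads taken off, SDHC was at 76.2 ± 2.24 CPM after siRNA-1, 70.7 ± 3.74 CPM after siRNA-2 and 99.4 ± 5.06 CPM in scrambled libraries (SD, n = 4 each), ratios of 0.766 and 0.711. SDHA, the flavoprotein that oxidises succinate, was at 189, 197, 198 and 205 CPM in siRNA-1 libraries, 208, 186, 193 and 196 CPM in siRNA-2 libraries, and 169, 167, 173 and 171 CPM in scrambled libraries. It was higher in every siRNA library, by 0.22 ± 0.04 and 0.21 ± 0.04 (edgeR adjusted p 2.08e-05 and 3.84e-05). SDHB, the iron-sulfur subunit, rose after siRNA-1 by 0.14, a call lost in 9 of 22 other settings, and had -0.01 after siRNA-2 (edgeR adjusted p 0.833). SDHD, the other anchor, fell after siRNA-2 by 0.25 and had -0.04 after siRNA-1 (edgeR adjusted p 0.635).

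The siRNAs were then compared with each other, siRNA-2 against siRNA-1, which uses no scrambled library for the means. 48 of the 78 genes were lower and 0 higher in siRNA-2 (edgeR), where 16.8% of all rows tested were lower and 15.8% higher, or 32.6% in either direction, and 22.7% of protein-coding rows were lower and 18.5% higher. By DESeq2, 49 were lower and 0 higher, and at an unadjusted p under 0.05 by edgeR 54 were lower and 1, NDUFV3, was higher. The median log2 fold change was -0.16, against -0.001 over all rows, and 73 of 78 values were below 0. In 42 genes the siRNA-2 libraries lay below all siRNA-1 libraries, against 16.3% of all rows, and in 1 above, against 15.7%. The genes came from every complex: 22 of 31 in complex I, 2 of 4 in complex II, 5 of 9 in complex III, 7 of 16 in complex IV and 12 of 18 in ATP synthase. No value passed a size of 0.5, while 24.7% of all rows past the threshold did. Without siRNA-2 replicate 1, 37 were lower.

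In this comparison COX7A2L was lower by 0.30 ± 0.04 (edgeR adjusted p 2e-06), and NDUFC2 averaged 124 ± 2.03 CPM after siRNA-2 and 147 ± 6.63 CPM after siRNA-1, lower by 0.25 ± 0.04 (edgeR adjusted p 5.67e-06). The COX6B2 row, which holds 96.3% of the exon length of KMT5C, was lower by 0.42 ± 0.05. ATP5PB and NDUFA5, which moved in opposite directions against scrambled, were both lower in siRNA-2, by 0.25 and 0.23. On the higher side, NDUFV3, NDUFA4L2 and COX7B2 had the smallest p-values, at 0.09, 0.04 and 0.02, with edgeR adjusted p of 0.114, 0.413 and 0.897. The summed level of all 80 genes in siRNA-2 was 0.908 of that in siRNA-1, and the ratio lay between 0.899 in complex I and 0.957 in complex II.

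Genes with a low GC content in their transcript had lower log2 fold changes than genes with a high one. Over the 78 genes, the log2 fold change and the GC content of the longest transcript gave Pearson's r 0.28 and Spearman's rho 0.40 after siRNA-1, and 0.39 and 0.49 after siRNA-2. Over 14519 protein-coding rows these were 0.28 and 0.31 after siRNA-1, and 0.32 and 0.37 after siRNA-2. The points are genes of the same 12 libraries and are not independent, so no p is given. Of the 49 genes under 50% GC, 39 fell and 3 rose after siRNA-2, beside 42.3% lower and 23.1% higher among protein-coding rows under 50% GC. Of the 29 genes at or above 50% GC, 12 fell and 1 rose, beside 17.3% lower and 49.9% higher among such protein-coding rows. On both sides of 50% GC, the share that fell after siRNA-2 was above that of protein-coding rows. In siRNA-2 against siRNA-1, 32 of 49 and 16 of 29 were lower, beside 27.4% and 18.1% of protein-coding rows. The part of base composition in the result was not tested further.

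**Figure D5:**
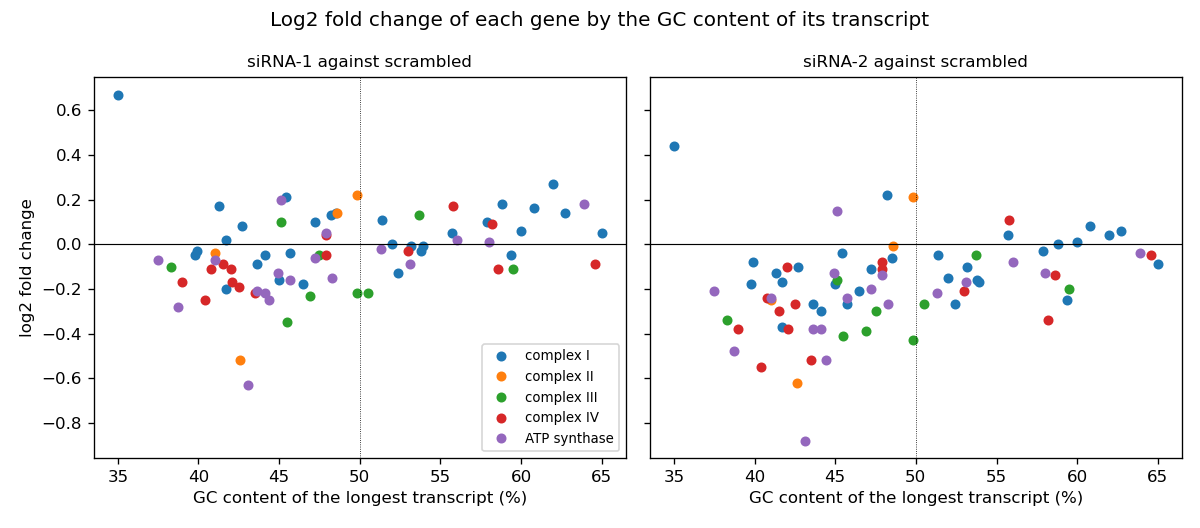
Log2 fold change of each gene against the GC content of its longest transcript in percent, for siRNA-1 and for siRNA-2 against scrambled, with complexes in colours and a dotted line at 50%. After siRNA-2 the genes under 50% GC have a median of -0.24 and those at or above it -0.09; after siRNA-1 the medians are -0.09 and 0.01. COX6A2 is not drawn.

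Of subunits and carriers outside the naming rule, CYC1 (cytochrome c1 of complex III) averaged 144 ± 8.49 CPM after siRNA-1, 137 ± 4.24 CPM after siRNA-2 and 143 ± 4.41 CPM in scrambled libraries and passed the threshold in no comparison. NDUFAB1, the acyl carrier subunit of complex I, and CYCS, cytochrome c, fell after siRNA-2 by 0.20 and 0.25. The 13 genes of mitochondrial DNA are not analysed here, so the mitochondrial side of the complexes cannot be set beside these values.

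Assembly factors, the proteins that build the complexes and are not part of them, had larger single changes. Of 53 tested, 13 rose (24.5%) and 21 fell (39.6%) after siRNA-1, beside 28.6% higher and 24.8% lower over all rows. After siRNA-2, 9 rose (17.0%) and 22 fell (41.5%), beside 29.9% and 26.1%. LYRM7, an assembly factor of complex III that acts on the Rieske protein UQCRFS1, averaged 7.72 ± 0.68 CPM after siRNA-1, 5.65 ± 0.314 CPM after siRNA-2 and 14.7 ± 1.35 CPM in scrambled libraries (SD, n = 4 each). Its log2 fold changes were -0.92 ± 0.08 and -1.38 ± 0.08 (edgeR adjusted p 3.46e-10 and 2.47e-13). The SCO2 row, named for a copper chaperone of complex IV, averaged 20.3 ± 1.53 CPM after siRNA-1, 22.0 ± 0.913 CPM after siRNA-2 and 11.5 ± 0.446 CPM in scrambled libraries. It rose by 0.82 and 0.93. Overlap of assembly factor rows with other genes was not examined, so reads of a neighbouring gene may be among their counts. For complex I, NUBPL, which delivers iron-sulfur clusters, fell by 0.87 and 0.98 in a row of 300.0 kb, ACAD9 by 0.42 and 0.26, and NDUFAF8 by 0.54 and 0.75. COX15, which makes heme a for complex IV, fell by 0.22 and 0.47.

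Among 16 regulators of mitochondrial biogenesis, 7 rose and 5 fell after siRNA-1, and 8 rose and 6 fell after siRNA-2. These shares were 43.8% higher and 31.2% lower after siRNA-1, beside 28.6% and 24.8% over all rows, and after siRNA-2 the 8 higher and 37.5% lower stand beside 29.9% higher and 26.1% lower over all rows. POLRMT, the mitochondrial RNA polymerase, rose by 0.65 and 0.47, POLG, the mitochondrial DNA polymerase, by 0.56 and 0.50, and PPRC1, a coactivator, by 0.40 and 0.43. The other coactivators on the list differed from PPRC1. PPARGC1A had -0.25 after siRNA-1 and fell by 0.53 after siRNA-2 (edgeR adjusted p 0.15 and 0.00293). PPARGC1B had 0.10 after siRNA-1 and rose by 0.63 after siRNA-2, with overlapping libraries (edgeR adjusted p 0.635 and 0.00163). NRF1 fell by 0.24 with each siRNA, TFAM, which packs and transcribes mitochondrial DNA, by 0.26 and 0.19, and GABPA by 0.20 and 0.53, in a row that overlaps ATP5PF. ESRRA, the estrogen-related receptor alpha, rose by 0.19 and 0.35. These genes were picked after their values were seen.

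Mitochondrial genes of 2 other groups differed in their counts. Of 74 mitochondrial ribosomal protein genes tested, 29 rose (39.2%) and 19 fell (25.7%) after siRNA-1, beside 28.6% higher and 24.8% lower over all rows. After siRNA-2, 18 rose (24.3%) and 27 fell (36.5%), beside 29.9% and 26.1%. In siRNA-2 against siRNA-1, 4 were higher (5.41%) and 28 lower (37.8%), beside 15.8% and 16.8% over all rows. Of 17 citric acid cycle genes, 6 rose (35.3%) and 7 fell (41.2%) after siRNA-1, and 5 rose (29.4%) and 7 fell (41.2%) after siRNA-2. In siRNA-2 against siRNA-1, 5 of them were higher (29.4%) and 8 lower (47.1%). Their median log2 fold change in siRNA-2 against scrambled was 0.00 for the ribosomal proteins and -0.03 for the citric acid cycle genes, beside -0.17 for the respiratory chain genes. In siRNA-2 against siRNA-1 the median was -0.09 for both of these groups, beside -0.16 for the respiratory chain genes. The difference between the groups was not tested.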

How the data were processed

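Total RNA of 12 libraries was sequenced. The authors deposited raw read counts per interval, whole numbers with no normalization, in 49731 rows. The submitters' processing notes name Salmon and the hg38 build without a version, and the interval counter was not given in the sources used here. Rows left out were 962 regions, 1027 under an older name, 1948 that reach over 100 kb beyond their gene, 420 with the counts of another row, 221 on chromosome Y, 72 unmatched rows over 1 Mb, 64 of ribosomal RNA and 26 named by a number.

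The counts went into edgeR 4.0.16 (R 4.3.3) with TMM scaling, that is trimmed mean of M values, and filterByExpr at a minimum count of 10 and a minimum total of 15. The robust quasi-likelihood model had 1 term, the group, over the 12 libraries, and p-values were adjusted by Benjamini-Hochberg over 24917 rows, with calls at 0.05 or less. Each SE was obtained by dividing the size of the log2 fold change by the root of its F statistic. CPM rests on TMM-scaled totals. The steps were tested on simulated data. Overlaps between rows are from the coordinates of the deposited rows. Exon lengths, exons of other genes inside a row and GC content are from GENCODE v29, and promoters and gene names from RefSeq.

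Alternatives were DESeq2 1.42.0, its size factors, other filters and row sets, a fit of only the 2 groups compared, a replicate block and the leaving out of libraries. Summaries used Python 3.11.15 with pandas 2.3.3 and numpy 2.4.6; plots used matplotlib 3.10.9.

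The genes, lists, promoter words and naming rule were chosen with earlier results of these data known. Genes were named where they had the smallest p-values, up to 3 per complex and direction, among those past the threshold with no overlap between groups, together with isoform pairs, genes called in opposite directions and assembly factors of large change. Others were named for their role. 1 gene of complex I is not reported here by name and is left out of the plot of fold changes; counts and sums include it.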

Additional observations from a re-analysis of the deposited data

Results flagged for a closer look

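In 11 of 249 groups of 4 libraries, 1 library stood far from the other 3 of its group (Dixon's test), and chance gives about 1 in 20. In complex I these were NDUFB1 at 15.3 CPM in scrambled replicate 3, NDUFS4 at 38.2 CPM in siRNA-2 replicate 2 and NDUFV3 at 39.6 CPM in siRNA-1 replicate 1. In complex II, SDHC was at 91.1 CPM in siRNA-1 replicate 1. In complex IV, COX5B was at 75.2 CPM and COX7C at 81.6 CPM in siRNA-1 replicate 2, COX6B2 at 52.4 CPM in siRNA-1 replicate 3, NDUFA4L2 at 158.0 CPM in siRNA-2 replicate 4 and 171.0 CPM in scrambled replicate 2, COX6B1 at 114.0 CPM in scrambled replicate 3, and COX6A2 at 4.74 CPM in scrambled replicate 4. No library held more than 2 of the 11.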

How the results depend on the processing

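The 17 genes higher after siRNA-1 became 10 with no filter on low counts, 8 with no row left out, 11 with protein-coding rows only, 10 without both libraries of high ribosomal RNA, and 9 among genes that overlap no other row, where fewer genes are counted. Leaving out 1 library gave 8 to 19; the cause was not tested. Among genes that overlap no other row, 8 were lower after siRNA-1 (22.9%), 19 lower after siRNA-2 (54.3%) and 22 lower in siRNA-2 against siRNA-1 (62.9%). Over all rows these shares were 24.8%, 26.1% and 16.8%. Among genes whose rows hold under 100 bases of exon of another protein-coding gene, an alternative chosen after seeing the data that counts fewer genes, 16 were lower after siRNA-1, and the ratio of summed levels in complex II, where this leaves out SDHC, was 1.13 for siRNA-1 and 1.1 for siRNA-2 over scrambled. Over all 78 genes, leaving out 1 library gave 19 to 33 lower after siRNA-1, 46 to 55 lower after siRNA-2 and 37 to 50 lower in siRNA-2 against siRNA-1. A replicate block gave 18 higher and 24 lower after siRNA-1, 4 and 52 after siRNA-2, and 0 and 48 in siRNA-2 against siRNA-1; same-numbered libraries were not paired, with correlations of -0.055 to 0.041, and in 2 of 24 cases a library correlated best, within another group, with its own number. Using the older-name rows of ATP synthase genes, an alternative chosen after seeing the data, gave 17 and 24, 4 and 51, and 0 and 48. Calls held in all 22 settings for 24 of 42 genes after siRNA-1, 49 of 55 after siRNA-2 and 33 of 48 in siRNA-2 against siRNA-1, and no called log2 fold change of these genes reversed its sign in them. The longest row per symbol could not be used as an alternative, since no symbol had several rows. The levels of COX4I2 and COX7A1 rest on few reads and are limited by depth. COX6A2 held 0 to 137 reads in the siRNA-1 libraries, 0 to 222 in the siRNA-2 libraries and 30 to 223 in the scrambled libraries. The cause of this spread was not tested.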
